A study of Homo sapiens with 8 samples.

Results

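The 10 genes followed here belong to the NF-kB response: CXCL1, CXCL2, CXCL3, IL8 (the older symbol of CXCL8) and CCL2, which encode chemokines, CSF1 and IL1B, which encode cytokines, and NFKBIA, TNFAIP3 and BIRC3, which encode regulators of the pathway. They were taken by symbol from the read count lists, where all 10 of the 10 members were present among 23228 gene symbols. A filter on low counts kept 13694 genes for testing, and 9 of the 10 members were among them; CCL2 did not pass. The counts came from BT-549, an established cell line of triple negative breast cancer. Cells received vehicle (DMSO), EC359 at 100 nM, the histone deacetylase inhibitor (HDACi) vorinostat at 10 µM, or EC359 and vorinostat together at those doses, in each case for 24 h. EC359 is a small-molecule inhibitor of the leukemia inhibitory factor receptor (LIFR). Each of the 4 groups had 2 libraries, numbered 1 and 2, and the labels do not say whether these were separate cultures. The p-values therefore measure only the spread between these libraries, which may be technical, and all values describe a single cell line.

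NF-kB proteins are held inactive in the cytoplasm by IkB proteins such as the product of NFKBIA. Signals from cytokine and pattern recognition receptors activate the IkB kinases, IkB is degraded, and the freed dimers enter the nucleus and bind kB sites in DNA. Their targets include chemokines that recruit neutrophils and monocytes and also the inhibitors that end the signal, so that NFKBIA and TNFAIP3 form negative feedback loops. In breast cancer cells this pathway is known for driving the secretion of IL-8 and related chemokines.

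The promoters are shown because 7 of the 10 members carried a match to the kB motif next to their start. The motif searched was GGNNTTTCC, on both strands, in the window from 250 bases before to 50 bases after the start of the MANE Select transcript. The 6 sequences below are from the GRCh37 assembly, on the strand of the gene, and end at the base before that start. Matches to the kB motif, and in IL8 also a match to the AP-1 motif TGANTCA at its 5′ part, are in capitals.
CXCL1, chr4:74734990-74735109, plus strand: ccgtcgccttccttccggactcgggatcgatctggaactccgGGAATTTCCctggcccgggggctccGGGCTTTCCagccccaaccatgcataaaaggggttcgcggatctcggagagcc
CXCL2, chr4:74964913-74965032, minus strand: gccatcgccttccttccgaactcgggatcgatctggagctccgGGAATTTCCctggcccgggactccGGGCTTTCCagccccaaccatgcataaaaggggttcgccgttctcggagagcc
CXCL3, chr4:74904407-74904526, minus strand: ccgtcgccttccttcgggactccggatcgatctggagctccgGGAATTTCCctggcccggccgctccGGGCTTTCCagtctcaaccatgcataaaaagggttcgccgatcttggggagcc
IL8, chr4:74606136-74606285, plus strand: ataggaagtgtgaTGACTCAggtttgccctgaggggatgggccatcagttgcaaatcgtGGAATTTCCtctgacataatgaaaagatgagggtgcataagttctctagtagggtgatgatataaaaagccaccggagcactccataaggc
NFKBIA, chr14:35873956-35874075, minus strand: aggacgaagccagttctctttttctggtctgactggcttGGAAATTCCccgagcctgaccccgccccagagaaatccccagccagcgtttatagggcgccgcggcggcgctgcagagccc
TNFAIP3, chr6:138188276-138188395, plus strand: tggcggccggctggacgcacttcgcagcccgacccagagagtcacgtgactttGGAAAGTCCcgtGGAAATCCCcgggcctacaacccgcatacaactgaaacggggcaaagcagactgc
The first 4 belong to a gene cluster on chromosome 4: IL8 lies at chr4:74606236-74609433, CXCL1 at chr4:74735110-74737025, CXCL3 at chr4:74902306-74904524 and CXCL2 at chr4:74962757-74964913. The other 2 sequences belong to NFKBIA (chr14:35870285-35873955) and TNFAIP3 (chr6:138188351-138204451). CXCL1, CXCL2 and CXCL3 were near copies of each other: over these 120 bases CXCL1 differed from CXCL2 by 8 edits and from CXCL3 by 11, while each of the 3 differed from IL8 by 70 or 71. All 3 carried the same pair of kB matches, at about the same distances from the start. TNFAIP3 also had a pair, whereas IL8 had 1, BIRC3 had 1 further upstream, and NFKBIA had 1 in the stretch shown and 1 more outside it. CCL2, CSF1 and IL1B had no match in the window, which says only that these letters were not there. Of 18922 promoters of the same length, 6.41% held the kB motif and 5.40% the AP-1 motif, which among the members was in IL8 alone. A match is a description of the sequence, and no factor was measured at it.

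**Figure D1:**
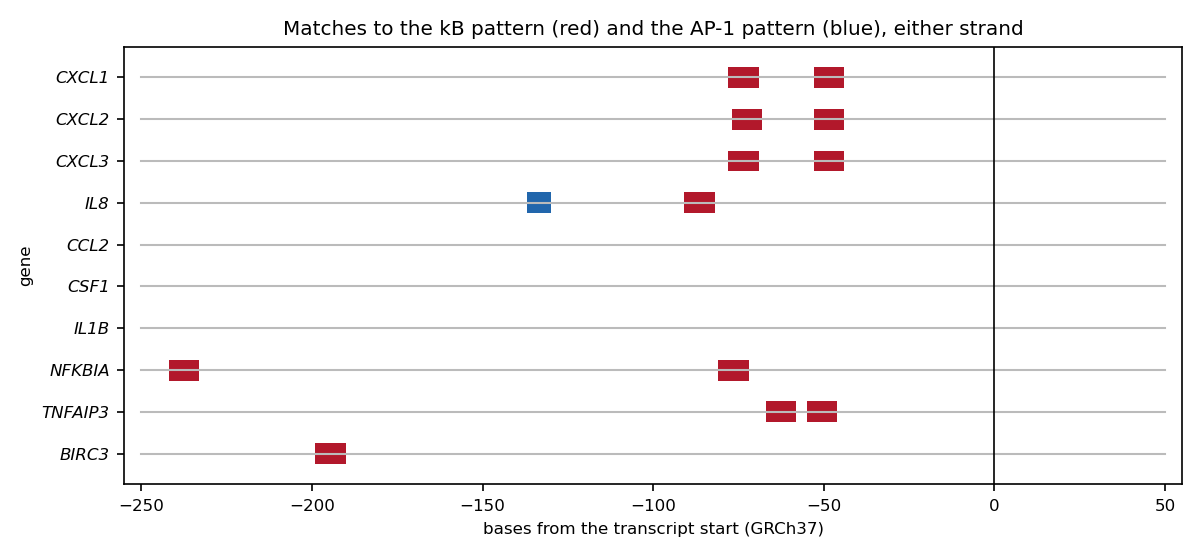
Positions of motif matches in the promoters of the 10 members, one line per gene, with the distance from the MANE Select start in bases on the horizontal axis. CXCL1, CXCL2 and CXCL3 share a pair of kB matches at like distances, and the only AP-1 match is in IL8.

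The gene counts of a library summed to 19069450 at the lowest and 24759041 at the highest. A count of 3, taken as the floor of detection, was worth 0.124 to 0.154 CPM (counts scaled to library size). Levels below are CPM after TMM normalization, a scaling of library sizes whose factors lay between 0.955 and 1.03. The spread between the libraries of a group, as the SD across genes of their log2 difference, was lowest for vorinostat at 0.312 and highest for EC359 at 0.563. The cell line was checked against its markers. VIM, a mesenchymal marker, had 44019 counts or more in every library, ESR1 had at most 20 and PGR at most 1. ERBB2, another receptor gene among the markers, lay above ESR1 and PGR in every library. It had 2036 and 2184 counts with vehicle, 1846 and 1581 with EC359, 308 and 347 with vorinostat, and 235 and 247 with both drugs. The epithelial markers CDH1 and EPCAM reached 43 and 83 counts, both in vorinostat replicate 1. The 8 leukocyte and macrophage markers together reached at most 3.17 CPM in any library and the 3 endothelial markers at most 0.720 CPM. Of the former, PTPRC was at 0 counts with both drugs and at 15 or fewer elsewhere, while CD14 went from 1 and 2 counts with vehicle and 0 and 1 with EC359 to 11 and 15 with vorinostat and 42 and 33 with both drugs. Its part in the results was not tested. A gene was called in a comparison at an adjusted p under 0.01 together with an absolute log2 fold change over 1. In bulk RNA, a share of cells with more transcript and more transcript in every cell cannot be told apart.

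IL8, a ligand of CXCR1 and CXCR2 that attracts neutrophils, rose with EC359 and rose further with both drugs. It was at 38.2 and 37.8 CPM in the vehicle libraries, 339 and 362 with EC359, 38.5 and 39.8 with vorinostat, and 1137 and 1039 with EC359 + vorinostat. The vorinostat libraries lay just above the vehicle libraries, while those with EC359 stood far above both. EC359 raised IL8 by a log2 fold change of 3.20 ± 0.09 (SE; adjusted p = 1.0e-06, edgeR quasi-likelihood test), that is 9.21-fold. Vorinostat alone gave 0.04 ± 0.09, with a 95% interval of -0.16 to 0.24 (adjusted p = 0.68, edgeR). Added to vorinostat, EC359 raised IL8 27.8-fold, a log2 fold change of 4.80 ± 0.10 (adjusted p = 5.1e-08, edgeR). IL8 was also 3.11-fold higher in EC359 + vorinostat than in EC359 alone (log2 fold change 1.64 ± 0.09; adjusted p = 5.8e-07, edgeR).

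CXCL1, another CXCR2 ligand, was higher wherever EC359 was given. Its levels were 59.6 and 55.9 CPM with vehicle, 184 and 151 with EC359, 47.4 and 50.2 with vorinostat, and 192 and 197 with both drugs. The libraries with EC359 did not overlap those without it, and the 2 EC359 libraries differed more from each other than those of any other group. The log2 fold change with EC359 was 1.54 ± 0.11 against vehicle (adjusted p = 3.7e-05, edgeR) and 2.00 ± 0.11 on top of vorinostat (adjusted p = 7.4e-06, edgeR). Neither vorinostat against vehicle (-0.24 ± 0.11; adjusted p = 0.085, edgeR; interval -0.50 to 0.01) nor EC359 + vorinostat against EC359 (0.21 ± 0.11; adjusted p = 0.11, edgeR; interval -0.03 to 0.46) was called.

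CXCL3, a neighbouring gene for another CXCR2 ligand, rose with each drug and furthest with both. It was at 3.82 and 3.36 CPM with vehicle, 18.9 and 18.1 with EC359, 19.3 and 20.0 with vorinostat, and 253 and 219 with EC359 + vorinostat. The libraries of the 2 single drugs stood next to each other, well above vehicle and far below the combination. EC359 raised it 5.14-fold (log2 fold change 2.36 ± 0.13; adjusted p = 8.1e-06, edgeR) and vorinostat 5.47-fold (2.45 ± 0.13; adjusted p = 8.5e-07, edgeR). With both drugs it was 65.6-fold above vehicle, a log2 fold change of 6.04 ± 0.14 that was the highest of the 9 tested members in any comparison (adjusted p = 1.3e-08, edgeR).

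CXCL2, a further gene of this cluster, also rose with each drug and furthest with both. It was at 4.25 and 5.79 CPM with vehicle, 8.41 and 12.3 with EC359, 22.3 and 21.9 with vorinostat, and 137 and 131 with both drugs. The 4 groups did not overlap, though the vehicle and EC359 libraries each spread widely for their level. The log2 fold change was 1.04 ± 0.21 with EC359 (adjusted p = 0.0092, edgeR), 2.14 ± 0.20 with vorinostat (adjusted p = 1.7e-05, edgeR) and 4.74 ± 0.21 with both drugs against vehicle (adjusted p = 1.8e-07, edgeR). The EC359 call sat at the threshold: it was lost with total-count scaling (adjusted p = 0.014, edgeR), and when any library was left out other than EC359 replicate 1. Its log2 fold change then lay between 0.75 and 1.28. Some reads of CXCL1, CXCL2 and CXCL3 cannot be placed: of their 50-base stretches, the length of a read, 5.33%, 10.1% and 5.26% occur in transcripts of another gene. The effect of these shared stretches on the levels was not tested.

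CCL2 (chr17:32582293-32584227), which attracts monocytes, was near the floor of detection everywhere. It had 2 and 5 counts with vehicle, 0 and 1 with EC359, 1 and 0 with vorinostat, and 0 and 3 with both drugs. No fold is given, since only 1 library, vehicle replicate 2, rose above the floor of 3 counts.

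**Figure D2:**
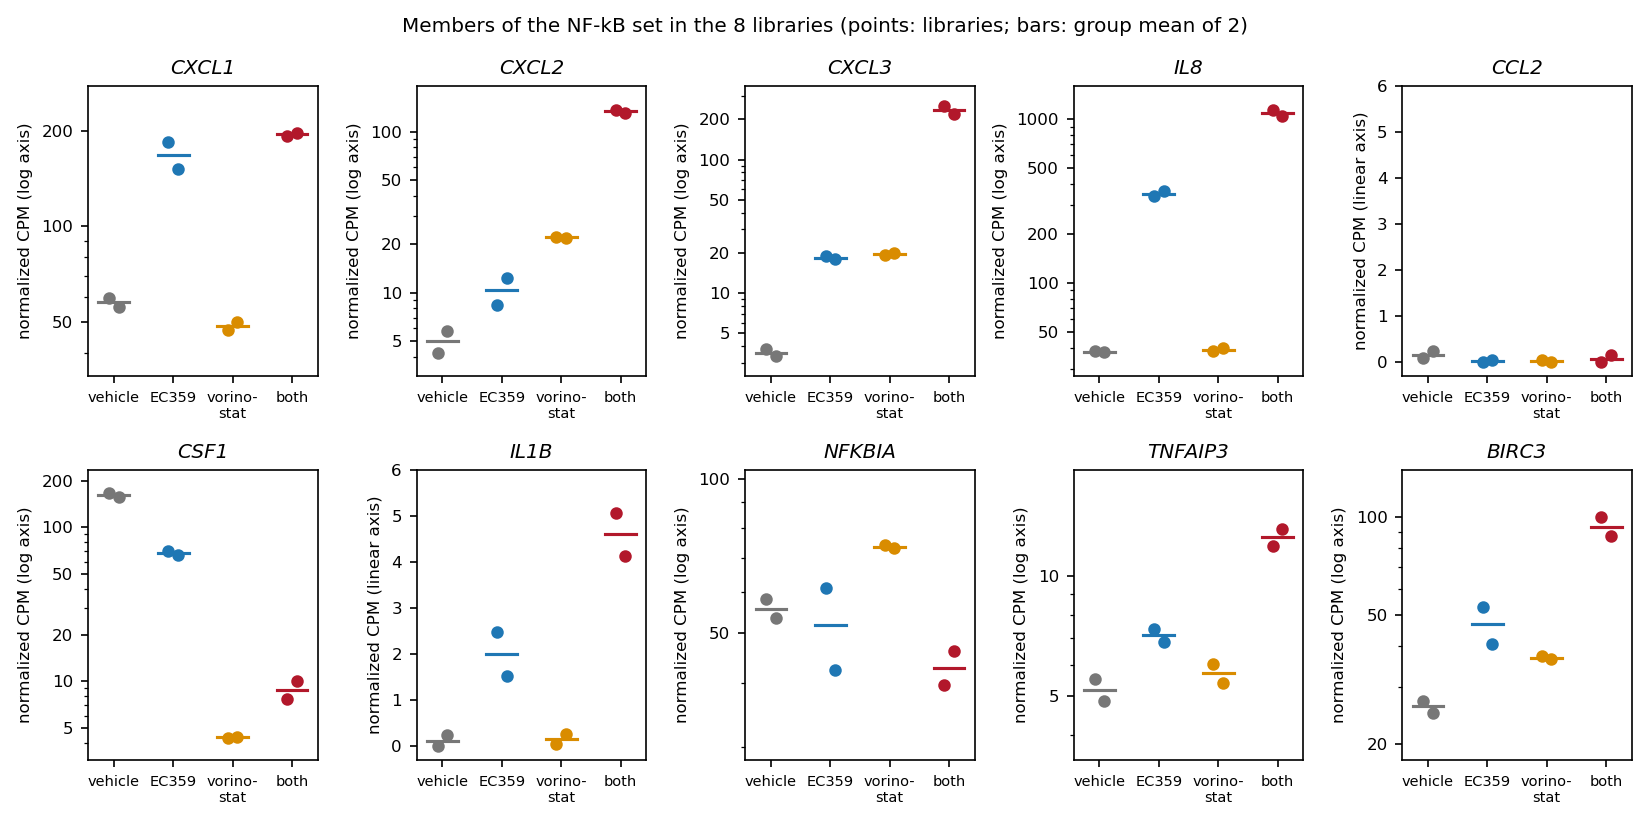
TMM-normalized CPM of the 10 members in the 8 libraries. Each panel is a gene, each point a library and each bar the mean of the 2 libraries of a group. The vertical axes are logarithmic apart from those of CCL2 and IL1B, which are linear because some libraries are at 0. IL8 reaches 1137 CPM with both drugs, and CSF1 runs the opposite way, from 168 CPM with vehicle to 4.32 CPM with vorinostat.

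CSF1 (chr1:110452864-110473614), the growth factor that macrophages need for survival, was the member that fell. It was at 168 and 158 CPM with vehicle, 70.8 and 66.4 with EC359, 4.32 and 4.38 with vorinostat, and 7.68 and 10.0 with EC359 + vorinostat. None of the groups overlapped, and those with vorinostat held the lowest libraries. CSF1 fell to 0.420 of its vehicle level with EC359 (log2 fold change -1.25 ± 0.12; adjusted p = 1.6e-04, edgeR) and to 0.0267 with vorinostat (-5.23 ± 0.15; adjusted p = 8.7e-08, edgeR). On top of vorinostat, EC359 moved it upward, by a log2 fold change of 1.02 ± 0.15 (adjusted p = 0.0017, edgeR). That value lay at the fold threshold, and the call was lost under several settings. It was 0.99 with RLE size factors, 0.93 with total counts, 0.99 with DESeq2 and 0.98 with no filter on low counts. It was 0.97 without vorinostat replicate 1, 0.99 without vorinostat replicate 2 and 0.78 without EC359 + vorinostat replicate 2, where the adjusted p in edgeR also missed the threshold (0.027, 0.026 and 0.014).

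IL1B (chr2:113587328-113594393), the proinflammatory cytokine that itself activates NF-kB, was close to absent without EC359. Its counts were 0 and 5 with vehicle, 60 and 30 with EC359, 1 and 6 with vorinostat, and 99 and 81 with both drugs. The 4 libraries that received EC359 lay above the 4 that did not. The log2 fold change was 4.03 ± 0.77 for EC359 against vehicle (adjusted p = 0.0079, edgeR) and 4.78 ± 0.69 on top of vorinostat (adjusted p = 0.0015, edgeR). The counts without EC359 are too low to fix the fold: the first value was 3.08 without vehicle replicate 1 and 8.42 without vehicle replicate 2. Its call was lost on leaving out each library of vehicle, vorinostat or EC359 + vorinostat in turn, with an adjusted p in edgeR between 0.012 and 0.048. The call on top of vorinostat was lost on leaving out each library of vorinostat or EC359 + vorinostat in turn, with log2 fold changes of 4.10 to 6.29.

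The 3 regulators of the pathway did not move together. NFKBIA, which encodes IkB-alpha, was at 58.3 and 53.4 CPM with vehicle, 61.1 and 42.5 with EC359, 74.2 and 73.1 with vorinostat, and 39.6 and 46.1 with EC359 + vorinostat. The EC359 libraries spanned those of vehicle, vorinostat was highest, and the combination was low. Its log2 fold change was -0.11 ± 0.16 with EC359 (adjusted p = 0.70, edgeR; interval -0.47 to 0.26) and 0.40 ± 0.16 with vorinostat (adjusted p = 0.053, edgeR). EC359 on top of vorinostat gave -0.78 ± 0.16 (adjusted p = 0.0080, edgeR), under the fold needed for a call. NFKBIA was thus called in no comparison with all libraries in the fit.

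TNFAIP3 encodes A20, a ubiquitin-editing enzyme that switches off signalling to the IkB kinases. It was at 5.52 and 4.86 CPM with vehicle, 7.38 and 6.85 with EC359, 6.02 and 5.40 with vorinostat, and 11.9 and 13.1 with both drugs. Vehicle and vorinostat overlapped, and the combination stood above all other libraries. Its log2 fold change was 0.46 ± 0.17 with EC359 (adjusted p = 0.11, edgeR), 0.14 ± 0.17 with vorinostat (adjusted p = 0.51, edgeR) and 1.27 ± 0.17 with both drugs (adjusted p = 1.3e-04, edgeR). EC359 on top of vorinostat gave 1.13 ± 0.17 (adjusted p = 0.0016, edgeR), a call that was lost on leaving out each library of vorinostat or EC359 + vorinostat in turn, where the value lay between 1.02 and 1.17.

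BIRC3 (chr11:102188215-102210134) encodes cIAP2, an inhibitor of apoptosis that also acts in NF-kB signalling. It was at 27.2 and 25.0 CPM with vehicle, 52.8 and 40.5 with EC359, 37.2 and 36.5 with vorinostat, and 99.5 and 87.0 with both drugs. The groups did not overlap, with the highest libraries in the combination. It was 1.79-fold higher with EC359 (log2 fold change 0.84 ± 0.14; adjusted p = 0.0040, edgeR), short of the fold for a call, and 3.57-fold higher with both drugs (1.84 ± 0.14; adjusted p = 4.3e-06, edgeR). Without EC359 replicate 2 the EC359 value was 1.03 and called. TNFAIP3 and BIRC3 each overlap a long non-coding gene on the opposite strand. Whether the counting used strand is not given in the sources used here, so reads of the overlapping genes cannot be told apart.

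**Figure D3:**
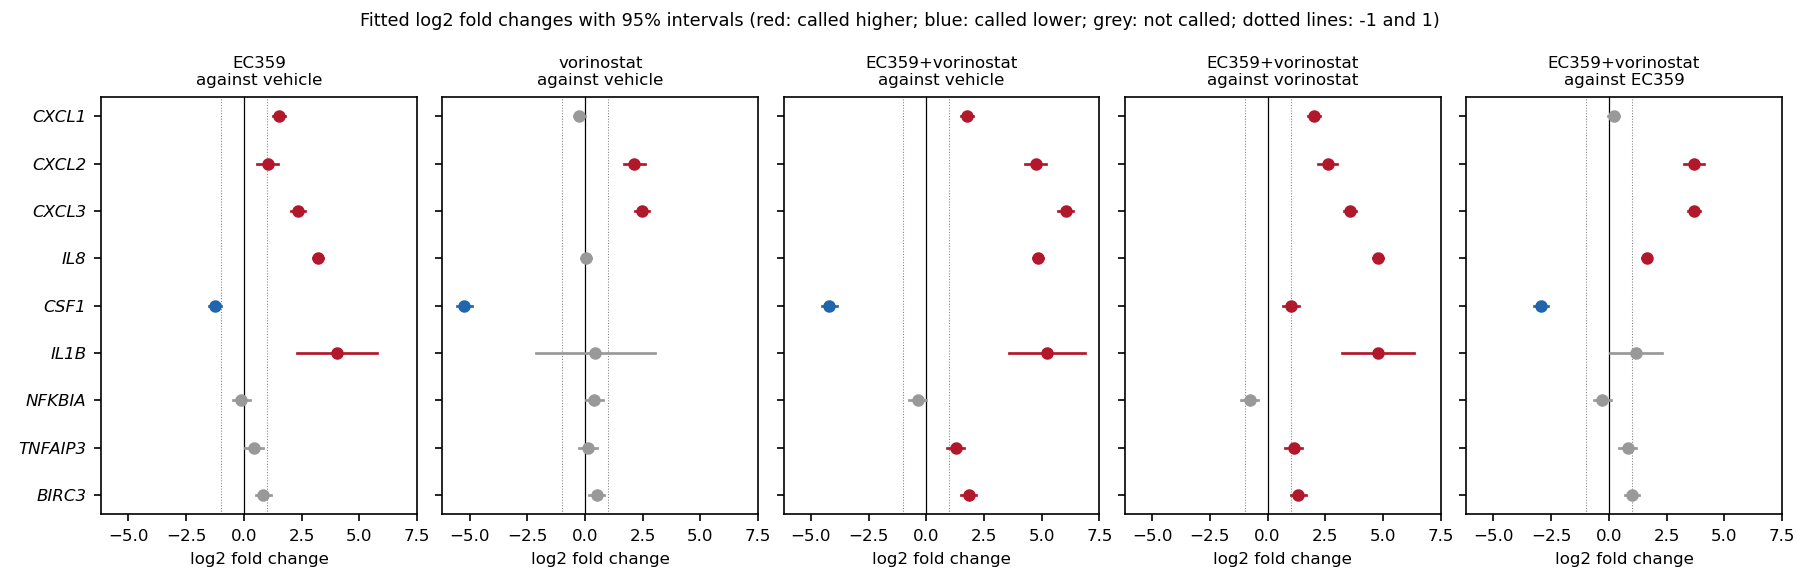
Log2 fold changes of the 9 tested members in the 5 comparisons between groups, 1 panel each, with bars for the 95% interval, red for members called higher, blue for lower and grey for not called. IL8, CXCL1 and IL1B are high in the panels that add EC359 to vehicle or to vorinostat, while CXCL2 and CXCL3 are high for both drugs. For vorinostat against vehicle, IL8 lies at 0.04 and CXCL1 at -0.24. IL1B lies at 0.44 there, with an interval of -2.13 to 3.01 that bounds little.

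The members were chosen with earlier results of these data known, so their counts describe the set and are not an independent test. Read as a set against the background of all tested genes, EC359 against vehicle called 5 of the 9 tested members higher and 1 lower, where 3.67% of all tested genes were called (1.94% higher and 1.72% lower). The 5 higher became 3 on leaving out each library of vehicle, vorinostat or EC359 + vorinostat in turn, with CXCL2 and IL1B lost. IL1B had at most 6 counts in the libraries without EC359. It passed the filter on low counts only through those with EC359, so its place among the tested members depended on that rise. The median log2 fold change of the members was 1.04, beside -0.02 for all tested genes. The comparison of EC359 + vorinostat against vorinostat shares no library with the first. Both rest on 1 fit over all 8 libraries with a shared estimate of the spread, so their calls are not independent. EC359 + vorinostat against vorinostat called 8 higher and 0 lower, where 4.25% of tested genes were called (3.37% higher and 0.876% lower), with a median of 2.00 beside -0.01. This count was 5 without either vorinostat replicate or without EC359 + vorinostat replicate 2, and 6 without EC359 + vorinostat replicate 1. NFKBIA was the tested member that was not called in it.

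Vorinostat changed a far larger share of the transcriptome, and its count of members was near that background. Against vehicle it called 2 members higher (CXCL2 and CXCL3) and 1 lower (CSF1) where 30.1% of all tested genes were called (16.8% higher and 13.3% lower), and the members' median was 0.40 beside 0.03. EC359 + vorinostat against EC359 called 3 higher (CXCL2, CXCL3 and IL8) and 1 lower (CSF1) where 33.7% were called (19.8% higher and 13.9% lower), with medians of 1.00 and 0.06. BIRC3 lay at the edge of that call, with a log2 fold change of 1.00 ± 0.14 that fell just short of the threshold (adjusted p = 1.8e-04, edgeR). Both drugs against vehicle called 7 higher and 1 lower where 34.8% were called (19.5% higher and 15.3% lower), with medians of 1.84 and 0.07.

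Whether EC359 acted differently in the presence of vorinostat was tested as the interaction of the drugs, called at an adjusted p under 0.01 alone. It was called for 3 of the 9 tested members, each with a positive value, where 2.10% of all tested genes were called (1.62% higher and 0.482% lower). IL8 rose by 3.20 on the log2 scale without vorinostat and by 4.80 with it, a difference of 1.59 ± 0.12 (adjusted p = 2.0e-04, edgeR). CXCL3 differed by 1.22 ± 0.17 (adjusted p = 0.0048, edgeR). For CSF1 the difference was 2.27 ± 0.19 (adjusted p = 3.1e-04, edgeR), and here the effect of EC359 changed sign, from -1.25 in its absence to 1.02 in its presence.

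Of the other members, CXCL2 came nearest to this threshold, with 1.56 ± 0.27 (adjusted p = 0.011, edgeR). It passed with DESeq2 and with no filter on low counts. The interaction of CXCL3 was lost on leaving out each library of vehicle, vorinostat or EC359 + vorinostat in turn (1.06 to 1.31, adjusted p in edgeR between 0.017 and 0.051). Leaving out a library of EC359 raised the number of members called to 6, each positive, without replicate 1 and to 5 without replicate 2, where 4 were positive and NFKBIA was negative (-0.92; adjusted p = 7.3e-04, edgeR). CXCL1 gave 0.46 ± 0.16 (adjusted p = 0.13, edgeR) and IL1B 0.75 ± 1.33 (adjusted p = 0.81, edgeR), the latter with an interval of -2.27 to 3.77 that bounds little.

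**Figure D4:**
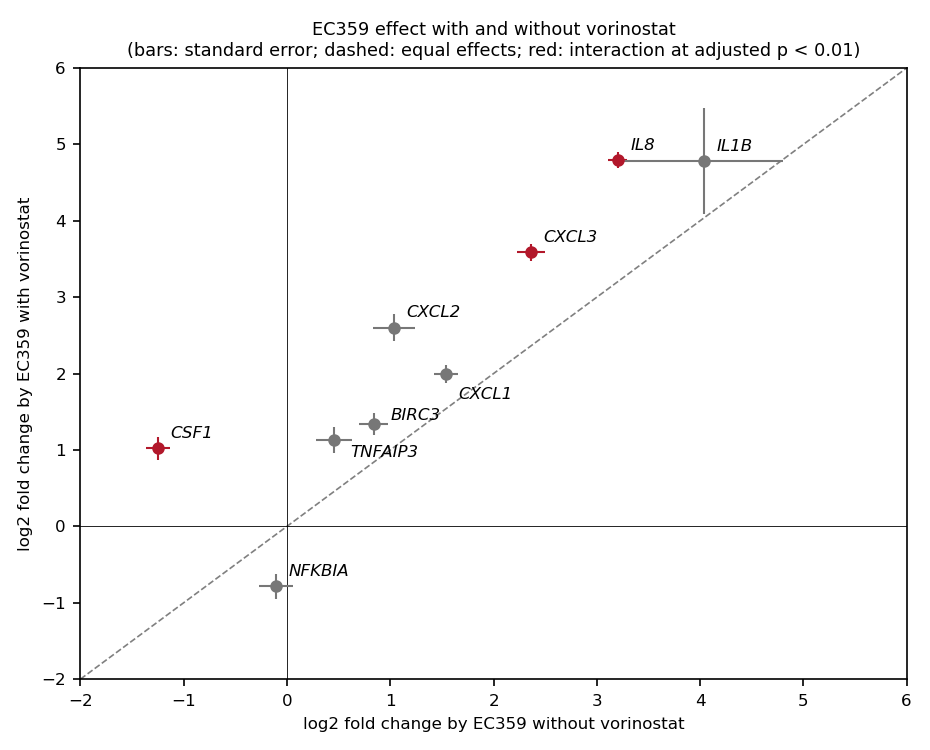
Log2 fold change with EC359 on top of vorinostat (vertical axis) against that with EC359 alone (horizontal axis) for the 9 tested members, with standard errors. The dashed line marks equal effects. The tested members other than NFKBIA lie above it, those in red (IL8, CXCL3 and CSF1) with a called interaction, and CSF1 lies at -1.25 on the horizontal and 1.02 on the vertical axis. The side of IL1B is not fixed, since the interval of its difference, -2.27 to 3.77, holds both signs. Over all tested genes the median difference was 0.015.

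Levels of different genes were compared per transcript length, as RPKM, among 19727 symbols with a length. With vehicle, CXCL1 was highest at 49.2, ahead of CSF1 at 40.9, NFKBIA at 35.8 and IL8 at 23.2, while CXCL2, BIRC3 and CXCL3 were between 3.34 and 4.50. With EC359, IL8 became the highest at 213 and CXCL1 followed at 143. With both drugs the order was IL8 at 663, CXCL3 at 220, CXCL1 at 166 and CXCL2 at 120.2, so that the 4 CXC chemokines led the set. By rank among all genes, IL8 moved from 3422 with vehicle to 240 with EC359 and 67 with both drugs. CXCL3 went from 8818 with vehicle to 250 with both drugs, and CSF1 from 2062 to 9771.

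The wider pathway was described with 7 lists holding 89 genes in the files, of which 62 were tested. These lists were also chosen with earlier results of these data known. Among the 12 tested of 22 other NF-kB targets, EC359 against vehicle called 5 higher and 1 lower (3.67% of all tested genes called), and EC359 + vorinostat against vorinostat called 8 higher and 0 lower (4.25% called). The list's median log2 fold change was 1.31 and 2.38 in these comparisons, beside -0.02 and -0.01 for all tested genes. The first median leaves out TNFAIP6, which was under the floor of detection in both groups, with 2 counts in each vehicle library and 0 with EC359. With TNFAIP6 included, that median was 1.02. Vorinostat against vehicle called 6 higher and 2 lower, where 30.1% of all tested genes were called. CCL20 and TNFAIP6 had at most 17 counts in each library without vorinostat. Both passed the filter on low counts only through libraries with vorinostat, so their place among the tested genes depended on that rise. CCL20, a chemokine for CCR6, was at 0.189 and 0.234 CPM with vehicle, 0.701 and 0.406 with EC359, 9.82 and 9.65 with vorinostat, and 186 and 164 with both drugs. Thus CCL20 stayed low with EC359 alone and was highest in the combination, whose value against vorinostat was 4.17 ± 0.14 (adjusted p = 2.7e-07, edgeR).

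BCL2A1, an antiapoptotic relative of BCL2, rose from 0.378 and 0.280 CPM with vehicle to 13.0 and 15.0 with EC359, a log2 fold change of 5.38 ± 0.22 (adjusted p = 1.8e-06, edgeR). PTGS2, which encodes cyclooxygenase 2, gave 3.60 ± 0.39 in that comparison (adjusted p = 3.2e-04, edgeR). TNFAIP6 had 1.23 and 1.49 CPM with vorinostat and 9.77 and 10.1 with both drugs. These 4 genes were the ones of the list with the largest log2 fold changes, and all were higher in the combination than in vorinostat alone. IL6, the cytokine of the STAT3 pathway, and CXCL5 had a called interaction, of 2.00 ± 0.18 (adjusted p = 4.1e-04, edgeR) and 0.91 ± 0.14 (adjusted p = 0.0063, edgeR), and were named after their values were seen.

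Among the 5 subunits, vorinostat called 1 higher and 1 lower, where 30.1% of all tested genes were called. NFKB1, which encodes the p105 precursor of p50, was at 55.2 and 47.9 CPM with vehicle, 78.2 and 66.0 with EC359, 4.37 and 4.29 with vorinostat, and 4.50 and 7.92 with both drugs. Its log2 fold change with vorinostat was -3.57 ± 0.23 (adjusted p = 2.2e-06, edgeR), whereas NFKB2, the gene of the p52 precursor, rose by 1.21 ± 0.10 (adjusted p = 8.2e-06, edgeR). With EC359, the log2 fold changes of the 5 subunits lay between 0.13 and 0.49 against vehicle and between -0.22 and 0.52 on top of vorinostat. Among 20 kinases and adaptors, vorinostat called 7, each of them lower, where 13.3% of all tested genes were called lower and 30.1% in either direction. They included TRAF1 (-3.45 ± 0.28; adjusted p = 6.8e-06, edgeR) and IKBKE (-2.64 ± 0.29; adjusted p = 4.2e-05, edgeR), and EC359 called 1 higher, TRAF1 (1.71 ± 0.19; adjusted p = 4.3e-04, edgeR), where 3.67% of all tested genes were called.

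For the counts that follow, 3.67% of all tested genes were called with EC359 against vehicle and 30.1% with vorinostat against vehicle. Among the 5 other IkB proteins, EC359 against vehicle called only BCL3, which was lower (-1.16 ± 0.15; adjusted p = 0.0010, edgeR). NFKBIZ, an atypical nuclear IkB protein, rose from 31.0 and 29.3 CPM with vehicle to 217 and 192 with both drugs, and its interaction was called at 1.20 ± 0.14 (adjusted p = 0.0018, edgeR). On top of vorinostat, EC359 called 2 of the 5 higher and 0 lower, where 4.25% of all tested genes were called. They were NFKBIZ (2.11, adjusted p = 2.2e-06, edgeR) and NFKBIB (1.22, adjusted p = 4.5e-05, edgeR). Of 10 tested feedback inhibitors other than the members, EC359 called 1 higher, TNIP3 (2.76 ± 0.29; adjusted p = 2.6e-04, edgeR), and vorinostat called 1, the same gene, lower (-1.68 ± 0.38; adjusted p = 0.0038, edgeR). Of 8 tested ligands and receptors that activate the pathway, EC359 called 1 higher, IL1RAP, the coreceptor for IL-1 (1.15 ± 0.11; adjusted p = 1.6e-04, edgeR). Levels of IL1RAP were 63.9 and 58.6 CPM with vehicle, 149 and 123 with EC359, 130 and 126 with vorinostat, and 260 and 258 with both drugs. Vorinostat called 2 of the 8 higher and 4 lower. IL1RAP was named after its values were seen. TLR3 (-3.50 ± 0.46; adjusted p = 1.4e-04, edgeR) and LTBR (-2.30 ± 0.11; adjusted p = 3.8e-07, edgeR) were among those lower with vorinostat, and CD40 went from 0 counts in both vehicle libraries to 1.90 and 2.04 CPM. Of the receptors and antagonists of the members, only 2 were tested, and CSF1R, the receptor for CSF1, rose from at most 0.280 CPM with vehicle to 2.93 and 3.02 with vorinostat. CD40, TLR5 (another receptor tested) and CSF1R had at most 6 counts in each library without vorinostat. They passed the filter on low counts only through libraries with vorinostat, so their place among the tested genes depended on that rise.

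**Figure D5:**
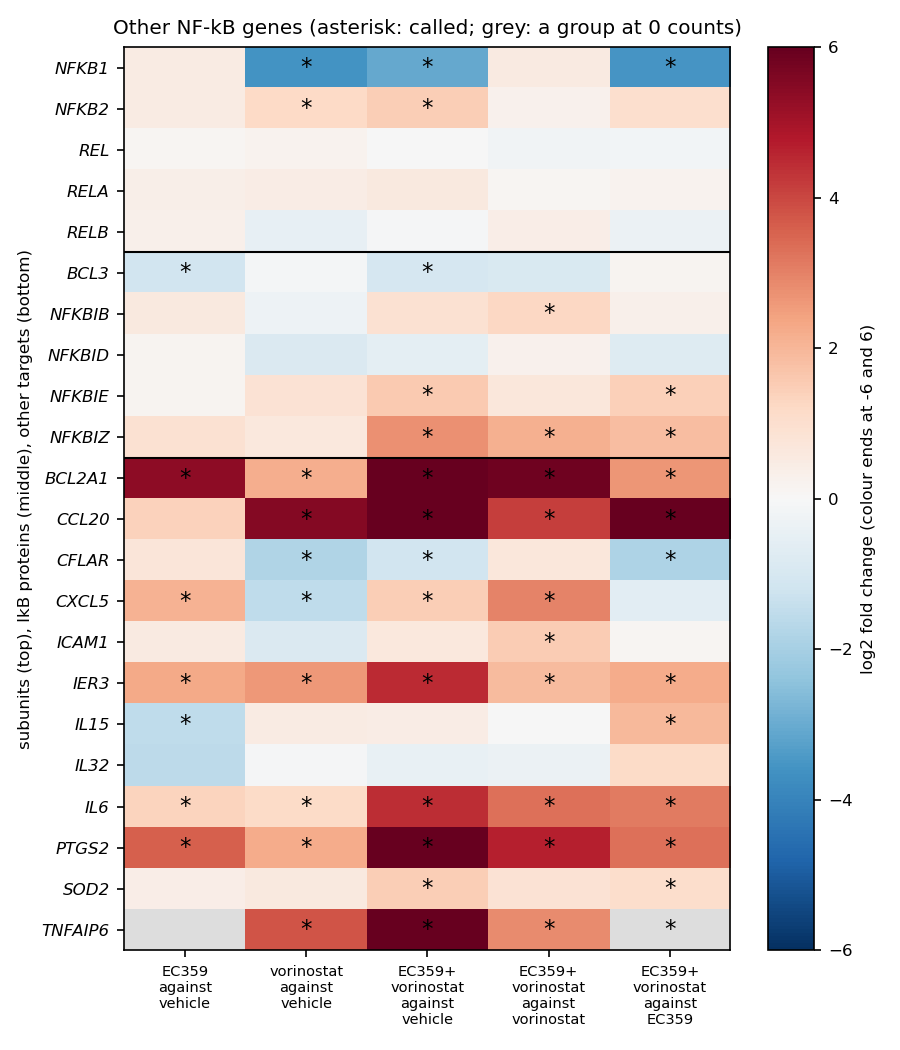
Log2 fold changes of the tested subunits, other IkB proteins and other targets of NF-kB in the 5 comparisons between groups. Red is higher and blue is lower, asterisks mark called genes, colours end at -6 and 6, and grey marks a group at 0 counts. The targets carry most of the red, and NFKB1 is blue in the comparisons of a group with vorinostat against a group without it.

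By the Pearson correlation of log2 CPM over the 8 libraries, the 2 genes most like each member were RND3 and DGKE for CXCL1 (0.998 and 0.997), SLC25A25 and KCTD5 for CXCL2 (both 0.995), GEM and SESN2 for CXCL3 (both 0.997), and MMP3 and MCTP1 for IL8 (0.997 and 0.995). For CSF1 they were ALPK2 and PRR5L (both 0.997), for TNFAIP3 ZNF235 and ZNF474 (both 0.989), and for BIRC3 MTAP and SOCS4 (0.999 and 0.996). IL1B was most like GATAD1 and FAM63B (0.983 and 0.977), and NFKBIA most like ATP6V0E2 and PROC (0.972 and 0.967). These values describe 8 points in 4 groups, and such likeness was common: 229 tested genes exceeded 0.9 with IL8 and 1714 with CSF1, but only 24 with NFKBIA.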

How the data were processed

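Single-end 50 bp reads were mapped by the authors to hg19, with TopHat2 2.0.8b per the submitters' processing notes, and HTSeq counted the reads on each gene. The deposited files hold those raw counts by gene symbol, without any scaling; the HTSeq version and strand setting are not given in the sources used here. The 5 summary lines of each list were left out. Counts were filtered with filterByExpr, TMM-scaled and fitted over all 8 libraries with edgeR 4.0.16 in R 4.3.3, with 1 mean per group. Comparisons were tested by quasi-likelihood and adjusted over the 13694 tested genes (Benjamini-Hochberg). SE is the absolute log2 fold change over the root of F. The procedure was tested on simulated data. The 2 libraries of each group differed by more than sampling noise. Alternatives were DESeq2 1.42.0, other scalings, no filter, adjusted p under 0.05, replicate blocks and leaving out each library. The crossed block was added after seeing the data. Lengths and promoters came from GENCODE on GRCh37, the assembly hg19 shares (19727 of 23228 symbols had a length). Figures were drawn with matplotlib 3.10.9.

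Members and lists were chosen with earlier results of these data known. All 10 members were named, with up to 4 called genes per pathway list by largest log2 fold change, and the 2 tested genes most correlated with each member.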

Additional observations from a re-analysis of the deposited data

Results flagged for a closer look

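The effect of EC359 on 3 members differed between cells with and without vorinostat, by edgeR's test of the interaction. The log2 effect with vorinostat minus that without it was 1.22 for CXCL3, 1.59 for IL8 and 2.27 for CSF1. For IL8 and CXCL3, EC359 raised the gene in both settings and by more with vorinostat. For CSF1 the direction turned, from lower without vorinostat to higher with it. CSF1 was then at 7.68 and 10.0 CPM, against 4.32 and 4.38 CPM with vorinostat alone, and at 168 and 158 CPM with vehicle. That rise of CSF1 on top of vorinostat, 1.02, lay at the fold threshold and lost its call under several settings. On leaving out each library of vehicle, vorinostat or EC359 + vorinostat in turn, the CXCL3 difference lost its call, at 1.06 to 1.31.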

How the results depend on the processing

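Of the log2 fold changes of the 9 tested members recomputed under 15 alternative settings, 755 kept their direction and their side of the threshold, 37 lost the call, 14 gained it and 4 reversed. The 4 reversals came from leaving out a library and concerned values that were not called. NFKBIA with EC359 ranged from -0.39 to 0.14 (reversed without EC359 replicate 2), IL1B with vorinostat from -1.11 to 4.81 (reversed without vorinostat replicate 2, and at -0.53 without vehicle replicate 1), and the interaction of IL1B from -3.63 (without vehicle replicate 2) to 2.24. The members called stayed at 3 for vorinostat against vehicle and at 8 for both drugs against vehicle under every setting. Leaving out a library gave 298 to 924 genes called for EC359 against vehicle (502 with all libraries). For EC359 + vorinostat against vorinostat, leaving out a library gave 285 to 730 genes and 5 to 8 members (582 and 8 with all libraries), and total-count scaling split the calls as 380 higher and 182 lower instead of 462 and 120. The interaction depended most on the setting. Its 288 genes became 713 with DESeq2, 189 with the replicate block, 477 with the crossed block (numbers of the combination libraries exchanged), 925 at an adjusted p under 0.05, and 56 to 1437 without a library. Its 3 pathway genes became 9 with DESeq2, 5 with no filter, 5 with the crossed block, 10 at an adjusted p under 0.05, and 1 to 13 without a library, and its 3 members became 2 to 6 without a library. The cause was not tested. Whether the replicate numbers pair the libraries could not be decided with 2 libraries per group. Deviations of libraries with the same number correlated at 0.23 between vehicle and EC359. For the combination they correlated at -0.10 with vehicle, -0.17 with EC359 and -0.11 with vorinostat. With the replicate block, EC359 against vehicle called 471 genes and 4 members, with CXCL2 and IL1B at an adjusted p of 0.010 and 0.015 in edgeR, and EC359 + vorinostat against EC359 called 5 members, with BIRC3 at 1.00. With 2 libraries per group, a left-out library leaves a single one that is assumed to vary like the others. Depth limits CCL2 and IL1B, whose counts without EC359 were at most 6.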
